A study of Rattus norvegicus with 48 samples.

Results

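The set described here holds 19 array probes of 22523 that were called detected more often in the left ventricle of rats on high salt than on low salt. A probe was taken in when its detection p was below 0.05 on at least 9 of the 12 high-salt ventricular arrays and on at most 3 of the 12 low-salt ventricular arrays. The detection p, computed by the array software, sets a probe's signal against the negative control beads of the same array. Since the probes were chosen by these detection calls, everything below on salt in the ventricle is a description with no test. The kidney comparisons did not enter the choice and were tested. The antibody comparisons in the ventricle were tested too, as the rule pooled the antibody groups within each diet. They nevertheless use the same arrays whose calls entered the rule. Of the 19 probes, 13 carried a gene name: Sipa1l3, Kif5c, Stac3, Hapln4, Eef1a1, Myo10, Ndrg3, Mrgprg, Ino80d, Ddx3x, Drc7, Ehf and Cldn19. The other 6 had only a probe number. The mirrored pattern, detection on at least 9 low-salt and at most 3 high-salt arrays, was met by 1984 probes.

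The named genes have diverse known roles. Kif5c is a kinesin motor of neurons, Stac3 an adaptor of excitation-contraction coupling in skeletal muscle, Ehf an epithelial transcription factor of the ETS family, and Cldn19 a tight-junction claudin of the kidney's thick ascending limb. These 4 are best known from tissues other than the heart, whereas Eef1a1 and Ddx3x, which serve translation and RNA handling, are used by most cells. On bead arrays of this kind a probe is called detected when it outshines most negative control beads, so near the background a call depends on the background as well as on the transcript.

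The animals were male Dahl salt-sensitive rats of the inbred strain SS/JrHsd, which become hypertensive on a diet rich in salt. They were placed at 6 weeks of age on chow with 8% or 0.1% NaCl for 8 weeks. Week 7 of the diet brought 1 intraperitoneal dose of 50 µg/kg of a monoclonal antibody to marinobufagenin, a steroid made by the body that inhibits the sodium pump, or of mouse IgG1 as control. The 4 groups were 8% NaCl with antibody, 8% NaCl with IgG1, 0.1% NaCl with antibody and 0.1% NaCl with IgG1. Each held 6 animals, with ventricle and kidney on 1 array per animal and tissue. The labels place the injection at 15 weeks and the tissue at 16 weeks of age, which does not add up with the weeks on the diet. Sample titles call the cardiac tissue lateral ventricle and the design text left ventricular. All 4 groups received an antibody injection, so none was uninjected.

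Ventricular arrays of salt-loaded rats were dim throughout. They detected 4448 ± 575 probes with the antibody and 5556 ± 766 with IgG1, against 7845 ± 286 and 7994 ± 316 on low salt with antibody and IgG1 (SD, n = 6 each). Kidney arrays detected 9995 to 11163 probes. Of all 22523 probes, 99.9956% had a lower mean deposited signal on high salt than on low salt. The cardiomyocyte list (14 probes) summed to 10689 to 98614 signal units on high-salt arrays, against 159667 to 286143 on low-salt arrays. Of 7 probes for kidney tubule and podocyte genes, 5 were detected on no ventricular array, and all 7 were detected on all 24 kidney arrays. None of the 19 probes belonged to any of the cell type or pathway lists examined. The lower sums were not particular to cardiomyocyte genes. The fibroblast list summed to 1542.5 to 13396.6 on high-salt and 15050.8 to 37385.1 on low-salt ventricular arrays. Ribosomal protein probes summed to 33852 to 225903 and 282184 to 493188. In bulk tissue, fewer cells of a type, less RNA per cell and a lower signal of the whole array cannot be told apart.

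Detection of the 19 probes was more frequent on high salt although their signal was lower there. Over the 19 probes and 6 arrays of a group there were 114 possible calls, of which 103 were made on high salt with antibody, 92 on high salt with IgG1, 14 on low salt with antibody and 25 on low salt with IgG1. Mean deposited signal was lower on high salt for 19 of 19 probes, with ratios of high over low salt between 0.730 and 0.864 (median 0.770). For 15 of them all high-salt arrays lay below all low-salt arrays, as they did for 90.1% of all probes. The median ratio over all probes was 0.663. The detection limit of an array, the lowest signal called detected on it, averaged 132 on high salt and 190.3 on low salt, a ratio of 0.694. The limit was thus lower by more than the probes' signal was, a difference that the rule itself favours. On the scale of deposited signal, the probes had more calls and not more signal on high salt. Mean signal over the array's own limit ranged over the probes from 1.02 to 1.12 on high salt and from 0.891 to 0.984 on low salt.

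**Figure D1:**
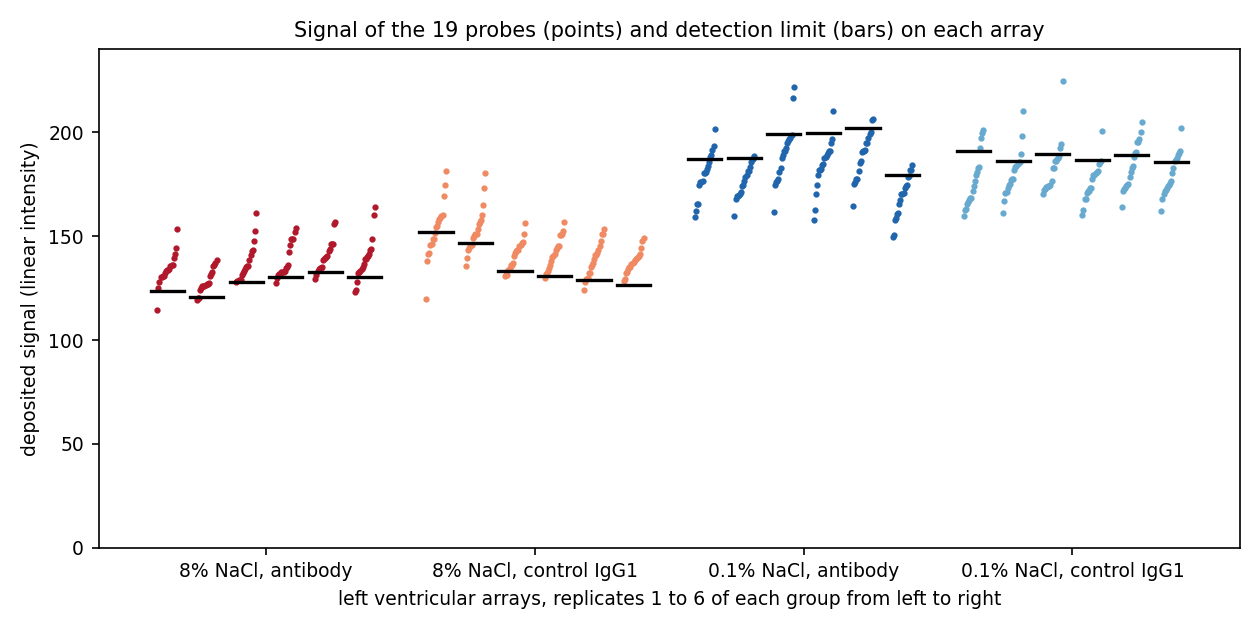
Deposited signal (linear intensity, vertical axis) of the 19 probes on each of the 24 left ventricular arrays, grouped by diet and antibody; each point is a probe and each bar the array's detection limit. On high-salt arrays the points run from 114.4 to 181.3 and mostly sit above a limit near 132; on low-salt arrays they run from 149.5 to 224.8 and mostly sit below a limit near 190.3.

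Among probes for genes of muscle and of molecular motors, Stac3 was detected on all 12 high-salt arrays. Its signal had a lowest, median and highest value of 126.5, 141.2 and 148.6 on high salt with antibody, against 136.2, 147.4 and 181.3 on high salt with IgG1. On low salt these were 150.5, 165.0 and 174.5 with antibody, against 165.3, 172.6 and 186.1 with IgG1, and 1 of the 12 arrays was called detected. The diets overlapped in signal, since IgG1 replicates 1 and 2 on high salt reached into the low-salt range. Kif5c, the neuronal kinesin, had values of 134.4, 143.9 and 161.3 on high salt with antibody, against 133.2, 147.3 and 173.1 with IgG1. On low salt Kif5c had 174.2, 190.9 and 216.6 with antibody, against 173.5, 182.4 and 188.9 with IgG1. All high-salt arrays lay below all low-salt arrays here, with 11 high-salt and 3 low-salt calls. Myo10, an unconventional myosin of filopodia, had 130.9, 134.1 and 146.4 on high salt with antibody, against 131.4, 141.2 and 174.7 with IgG1. Its detection calls numbered 6 and 4 in those groups, and 2 and 1 on low salt with antibody and IgG1.

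Among probes for nuclear and RNA-handling genes, Ehf was the 1 probe called on no low-salt array. Its lowest, median and highest signals were 130.7, 134.9 and 147.5 on high salt with antibody, against 119.7, 131.3 and 151.0 with IgG1, and 158.0, 169.3 and 195.0 on low salt with antibody, against 163.3, 172.9 and 182.6 with IgG1. All 6 antibody arrays and 4 of 6 IgG1 arrays on high salt were called detected. Ino80d, a subunit of the INO80 chromatin remodeller, had 127.3, 129.6 and 146.1 on high salt with antibody, against 128.0, 141.0 and 158.9 with IgG1. It was called on 9 high-salt arrays and on 1 low-salt array. Ddx3x, an X-linked RNA helicase, was called on 5 and 4 high-salt arrays with antibody and IgG1, and on 1 and 2 low-salt arrays. The Eef1a1 probe, for a translation elongation factor, had signals of 133.3, 137.8 and 148.6 on high salt with antibody, against 129.3, 147.7 and 157.9 with IgG1. The probes of this gene disagreed, since 4 other Eef1a1 probes were detected on all 48 arrays. Kif5c had 1 other probe, detected on no array, and Drc7 had 1 other probe, detected on 1 ventricular array.

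The remaining named probes were for matrix, junction, signalling and cilium genes. Hapln4 encodes a link protein of hyaluronan and proteoglycans in brain matrix, and its signals were 120.2, 142.8 and 155.7 on high salt with antibody, against 132.5, 144.3 and 159.7 with IgG1. Cldn19 had 120.4, 129.5 and 138.8 on high salt with antibody, against 132.3, 136.3 and 150.9 with IgG1, and was called on 4 and 5 of these arrays. On low salt Cldn19 was called on 0 antibody and 3 IgG1 arrays. Sipa1l3, of a family of Rap GTPase activators, was called on 11 high-salt arrays and 1 low-salt array. Mrgprg, a receptor of the Mas-related family, and Ndrg3, of the N-myc downstream-regulated family, were each called on 10 high-salt and 3 low-salt arrays. Drc7, of the regulatory complex of motile cilia, was called on 9 and 2. The unnamed probe ILMN_2039025 was, with Stac3, 1 of 2 probes called on all 12 high-salt arrays. The 6 unnamed probes were called on 9 to 12 high-salt arrays and on 1 to 3 low-salt arrays.

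The choice of probes moved with the detection threshold. At a detection p below 0.01 the same counts of arrays also gave 19 probes, of which 0 were among the 19 described here. Those included Atp6v1g3 (a subunit of the vacuolar proton pump), Tnfrsf18 (a costimulatory receptor of T cells) and Slc39a10 (a zinc transporter), which at a p below 0.05 were detected on 6, 11 and 12 low-salt arrays. Of the 19 probes here, none had a p below 0.01 on more than 7 of the 12 high-salt arrays. Asking for at most 1 low-salt and at least 11 high-salt arrays left 5 probes. At the edge of the rule, 9 of the 19 probes had exactly 3 low-salt calls, and the next 13 probes, with 4, included Or9g4 and Or2y12 (odorant receptors) and Tubb2b (a neuronal tubulin). Likewise 5 of the 19 had exactly 9 high-salt calls, among them Ino80d, Ddx3x and Drc7, and 16 probes with 8 fell just outside, including Scg5 (a neuroendocrine secretory protein) and Gjb1 (a gap-junction connexin). Mean signal was 135.7 on high salt and 183.2 on low salt for Ddx3x just inside the rule. Just outside it was 138.4 and 154.2 for Scg5, and 137.3 and 181.9 for Gjb1.

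Ranked within each array, the 19 probes stood higher on high salt. The mean percentile rank among all 22523 probes of the array ranged over the probes from 77.6 to 84.4 on high salt and from 46.3 to 62.5 on low salt. For 9 of 19 probes all high-salt arrays ranked above all low-salt arrays, against 3.54% of all probes, a difference that the rule itself favours. Stac3 averaged a percentile rank of 84.0 on high salt and 46.3 on low salt, and Ehf 77.6 and 50.9. The rank moved with array brightness, taken as the 95th percentile of an array's signal on the log2 scale. The dimmest ventricular array, replicate 2 of high salt with antibody, had a brightness of 7.44 and a median rank of 87.2 for the 19 probes. The brightest high-salt array, replicate 1 of high salt with IgG1, had 9.73 and 69.9, and it detected 10 of the 19 probes. Replicate 2 of that group detected 12, and the other 10 high-salt arrays detected 16 to 19. Low-salt arrays had brightness of 10.02 to 10.70 and median ranks of 52.7 to 61.7. The part of brightness in the ranks was not tested.

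**Figure D2:**
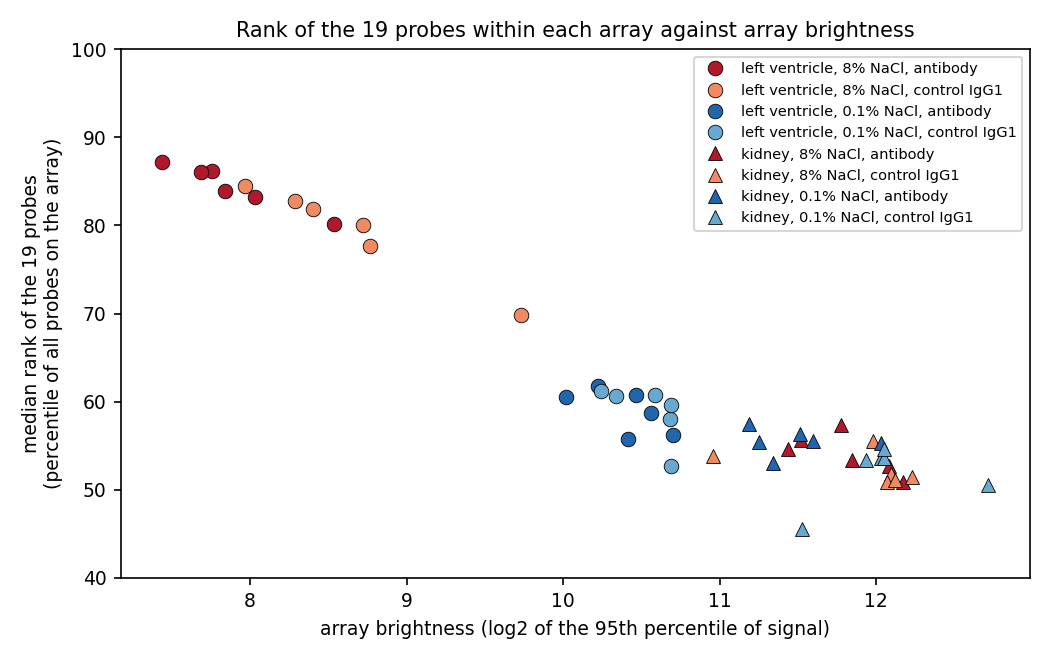
Median percentile rank of the 19 probes among all probes of an array (vertical axis) against array brightness (95th percentile of the array's signal on the log2 scale, horizontal axis), 1 point per array, circles for ventricle and triangles for kidney. High-salt ventricular arrays lie at ranks of 69.9 to 87.2, low-salt ventricular arrays at 52.7 to 61.7 and kidney arrays at 45.5 to 57.4.

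The direction of the salt difference depended on the scale. After background correction and quantile normalization, which give every array the same distribution of values, the normalized log2 level was higher on high salt for 19 of 19 probes. The median log2 difference was 1.99 with antibody (1.61 to 2.61) and 1.28 with IgG1 (0.83 to 1.73), beside -0.31 and -0.13 over all 8354 probes tested. With antibody 27.2% and with IgG1 25.2% of all tested probes passed an adjusted p of 0.05 in the higher direction (limma), and nothing is read from the probes' count, since the rule used this contrast. Probes undetected in a whole low-salt group have only a lower limit, which holds within the quantile-normalized scale alone. On that scale Ehf was at least 3.94-fold higher with antibody and at least 1.75-fold higher with IgG1, and Stac3 at least 4.46-fold higher with antibody. Under median scaling the log2 differences of Ehf were 0.68 with antibody and 0.31 with IgG1, and with brightness as a covariate -0.15 and -0.82. With probes at their limit on the quantile-normalized scale the medians were 1.97 and 1.26. On the log2 of deposited signal without normalization the medians were -0.43 and -0.33, and with brightness as a covariate -0.15 and -0.27. Brightness ran from 7.44 to 9.73 on high-salt and from 10.02 to 10.70 on low-salt ventricular arrays. The diets did not overlap in it, so salt differences with this covariate are extrapolations.

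Given to rats on high salt, the antibody went with higher levels of these probes after quantile normalization, a direction that did not hold on other scales. At an adjusted p below 0.05, 10 of 19 probes were higher with antibody than with IgG1 and 0 lower (limma, Benjamini-Hochberg over 8354 probes). Of all tested probes, 18.8% were called in either direction, 7.12% higher and 11.6% lower. The rule used detection calls on these same high-salt arrays. Neither the count for the 19 probes nor the p-values of single probes given below are independent of their choice. They describe the probes and are not read as support for an antibody effect. The log2 difference had a median of 0.69 over the 19 probes (0.31 to 1.19), beside -0.09 over all tested. After quantile normalization all 19 probes were above 0, but 12 of 19 were below 0 under median scaling (-0.18 to 0.25 over the 19) and 9 of 19 with brightness as a covariate (-0.32 to 0.47). The 6 antibody and 6 IgG1 arrays overlapped for 19 of 19, while 1.39% of all tested probes had groups that did not overlap. The count did not hold under several settings. It was 0 under median scaling in place of quantile normalization, 0 with brightness as a covariate, and 0 when the model held only the 2 groups compared. Without the 2 ventricular arrays that stood apart, antibody replicate 2 and IgG1 replicate 1 on high salt, it was 3, and leaving out 1 array at a time gave 6 to 14, with 6 without antibody replicate 2, antibody replicate 3 or IgG1 replicate 1 on high salt. Antibody arrays on high salt were also dimmer, at brightness 7.44 to 8.54 against 7.97 to 9.73 with IgG1, and their part in the result was not tested beyond that covariate.

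Ehf showed the widest difference by the antibody. It averaged a log2 level of 7.34 ± 0.65 with antibody and 6.15 ± 0.72 with IgG1 on high salt (SD, n = 6 each), a difference of 1.19 ± 0.27 (SE, limma adjusted p = 0.00421). The SE pools the spread of all 4 groups, and the SD of Ehf on low salt was only 0.16 with antibody and 0.12 with IgG1. The adjusted p therefore understates the spread of the high-salt arrays compared. The deposited signal of Ehf averaged 137 with antibody and 134.2 with IgG1 on high salt. Ehf and 1 unnamed probe, ILMN_1650361, were the 2 probes whose mean deposited signal was not lower with antibody, against 17 of 19 that were. The share over all probes is not given here. The median signal over all probes of an array was also lower, averaging 109.5 with antibody and 117.6 with IgG1 on high salt. The detection calls of Ehf were 6 and 4, and its mean ranks 85 and 70.1. For ILMN_1650361 the difference was 1.03 ± 0.29 (SE, limma adjusted p = 0.0157) and for ILMN_1354705 1.0 ± 0.25 (SE, limma adjusted p = 0.00823). Calls of ILMN_1354705 were 6 with antibody and 3 with IgG1.

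Probes for motor and muscle genes were called higher with antibody too. Kif5c differed by 0.98 ± 0.30 (SE, limma adjusted p = 0.0269), Myo10 by 0.78 ± 0.24 (SE, limma adjusted p = 0.0245) and Stac3 by 0.69 ± 0.19 (SE, limma adjusted p = 0.0147). The deposited signal of all 3 was lower with antibody, with means of 144.2 against 148.3 for Kif5c, 135.5 against 145.0 for Myo10 and 140.2 against 152.4 for Stac3. Under median scaling Myo10 and Stac3 stood at -0.04 and -0.10, so that their direction turned. Kif5c lost the call without antibody replicates 1, 2 or 3 or without IgG1 replicates 1 or 4 on high salt.

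In the nuclear, RNA and matrix groups, Hapln4 differed by 0.96 ± 0.25 (SE, limma adjusted p = 0.00934), Ino80d by 0.81 ± 0.19 (SE, limma adjusted p = 0.00574) and Eef1a1 by 0.81 ± 0.27 (SE, limma adjusted p = 0.0396). Ino80d averaged 7.10 ± 0.47 with antibody and 6.28 ± 0.40 with IgG1 (SD, n = 6 each), and Hapln4 7.48 ± 0.42 and 6.51 ± 0.71. Ehf, Hapln4, Ino80d, Stac3, ILMN_1650361 and ILMN_1354705 kept an adjusted p below 0.05 in every fit that left out 1 array, though not under median scaling, the brightness covariate or the fit of only the 2 groups. Eef1a1 lost it without any of 4 antibody arrays and 4 IgG1 arrays on high salt. The deposited signal of this Eef1a1 probe was lower with antibody, at 138.55 against 145.6. So was that of the 4 other Eef1a1 probes, at 1740, 2937, 5784 and 5146 against 3856, 4366, 8017 and 7234. The call not yet given belonged to an unnamed probe. Mrgprg (0.62), Ddx3x (0.59), Sipa1l3 (0.54), Cldn19 (0.47), Drc7 (0.41) and Ndrg3 (0.31) did not pass the test, nor did 3 unnamed probes.

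**Figure D3:**
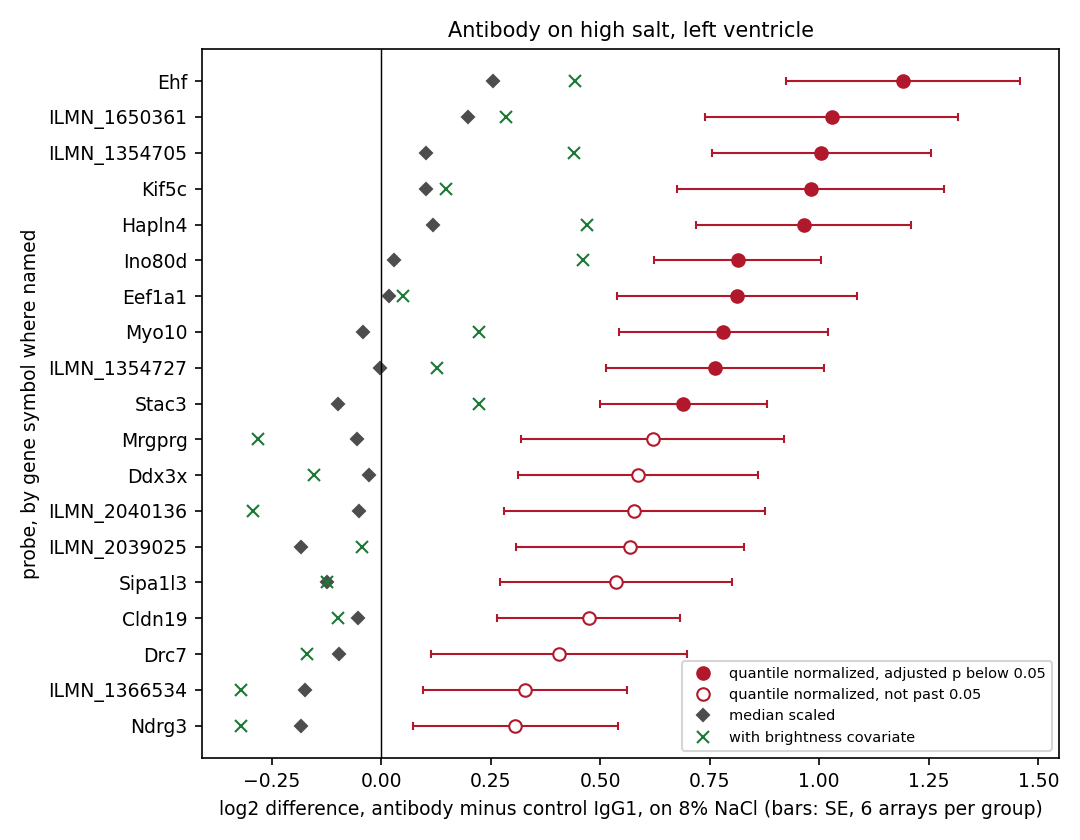
Log2 difference between antibody and control IgG1 on high salt in the left ventricle (horizontal axis) for each of the 19 probes; circles with SE bars are the quantile-normalized fit (filled where the adjusted p is below 0.05), diamonds the fit after median scaling and crosses the fit with array brightness as a covariate. All circles lie between 0.31 and 1.19, while the diamonds run from -0.18 to 0.25 and the crosses from -0.32 to 0.47, on either side of 0.

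Detection calls and ranks by antibody on high salt are given as a description, since the rule used the calls and quantile normalization sets a level by its rank. With antibody 10 of the 19 probes were called on more arrays than with IgG1, 6 on as many and 3 on fewer. With antibody 10 probes were called on all 6 arrays, and with IgG1 3 probes. Mean rank was higher with antibody for 19 of 19. The shares of all probes for these counts are not given here. Over all probes fewer were detected with antibody, on average 4448 per array against 5556 with IgG1. With the tested probes cut into 5 equal bins of mean high-salt signal, the 19 probes all fell in bin 3, which runs from 132.7 to 154.6. In that bin 11.9% of probes were called higher with antibody and 17.5% lower, against 0.42% and 7.24% in the dimmest bin and 5.03% and 5.57% in the brightest.

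**Figure D4:**
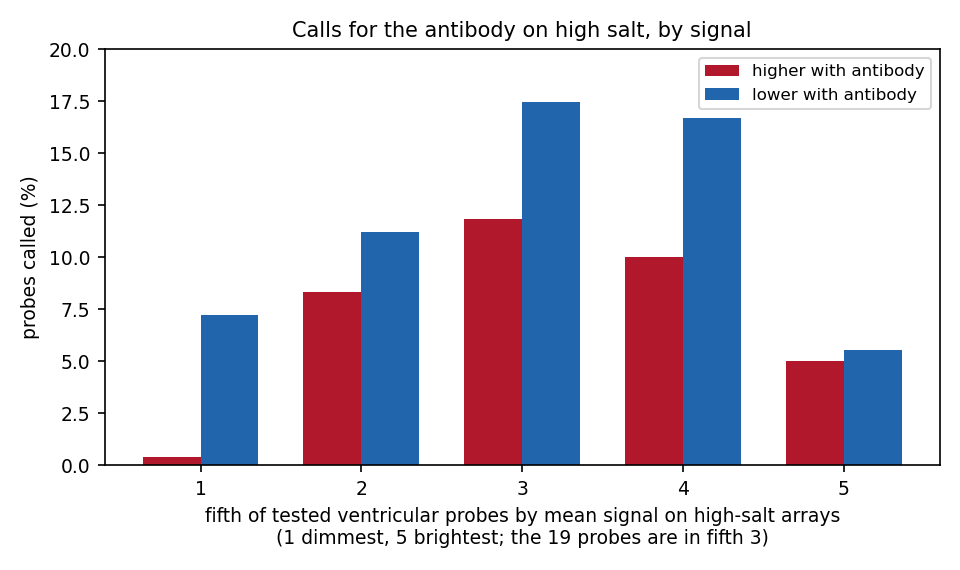
Percent of tested left ventricular probes called higher or lower with antibody on high salt (limma, adjusted p below 0.05; vertical axis) in 5 bins of mean high-salt signal (horizontal axis, dimmest to brightest). Bin 3, which holds the 19 probes, has 11.9% called higher and 17.5% called lower.

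On low salt the antibody could not be judged from these probes. The rule allowed at most 3 of 12 low-salt calls, so the probes passed the filter through the high-salt arrays, and their low-salt signal averaged 0.891 to 0.984 of the detection limit. Nothing is therefore read from the count of 0 of 19 called, beside 0 of all 8354 (0%), with an unadjusted p below 0.05 for 0 of the 19 and 72 of all (limma). The median log2 difference was -0.05, from -0.21 to 0.13. Low-salt levels were low on the normalized log2 scale, for Ehf 5.03 ± 0.16 with antibody and 5.11 ± 0.12 with IgG1 (SD, n = 6 each). No call on any low-salt antibody array was made for 9 of the 19 probes, and none on any low-salt IgG1 array for 2. The difference between the antibody effects on the 2 diets, which takes in these low-salt values, had a median of 0.67, and 0 of 19 passed the test (background 1.80%). It was above 0 for 19 of 19 probes after quantile normalization, but below 0 for 9 of 19 under median scaling and for 5 of 19 with brightness as a covariate. The smallest adjusted p-values were 0.0523 for Ino80d, 0.0756 for Ehf and 0.0800 for Stac3 (limma). An unadjusted p below 0.05 was found for 8 of the 19 and 1575 of all 8354 (limma). Leaving out 1 array gave 0 to 5 calls, and array weights gave 5. The background of 1.80% is that of the main fit, and the share of all probes under these settings is not given. The difference between the diets subtracts low-salt values that could not be judged. Nothing is therefore read from its count or its p-values on whether an antibody effect was particular to high salt.

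In the kidney detection of the 19 probes ranged from none to all of the 24 arrays. On all 24 kidney arrays 5 were detected, namely Cldn19, Ndrg3, Ehf, Ddx3x and 1 unnamed probe. Another 7 were detected on 6 to 23 arrays, 4 on 1 to 5, and 3 on none (this Eef1a1 probe, Mrgprg and 1 unnamed probe). The 4 other Eef1a1 probes were detected on all 24 kidney arrays. Kidney calls of 114 were 60 on high salt with antibody, 61 on high salt with IgG1, 68 on low salt with antibody and 57 on low salt with IgG1. The ventricular split by diet was not seen in these counts. Under the same rule the kidney arrays gave 43 probes, with 0 of the 19 among them, and the mirrored rule gave 2 probes, also with 0.

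Cldn19 stood out in the kidney, where its protein seals the thick ascending limb. Its lowest, median and highest deposited signals were 447, 690.5 and 810 on high salt with antibody, against 380, 564.5 and 703 with IgG1. On low salt they were 369, 406 and 694 with antibody, against 503, 631 and 926 with IgG1. All 4 groups overlapped, and its mean percentile rank was 77.9 on high salt and 77.6 on low salt. Ehf, known from epithelia, had normalized log2 levels of 6.35, 6.91 and 7.93 on high salt with antibody, against 6.41, 6.82 and 8.69 with IgG1. On low salt Ehf had 6.57, 7.29 and 7.61 with antibody, against 6.35, 6.61 and 7.44 with IgG1. These groups overlapped widely, with the highest value on 1 high-salt IgG1 array. Ndrg3 had log2 levels of 7.48, 7.72 and 8.13 on high salt with antibody, against 7.00, 7.36 and 7.55 with IgG1. On low salt Ndrg3 had 7.47, 7.83 and 7.99 with antibody, against 7.48, 7.63 and 8.18 with IgG1. High salt with IgG1 was the low group, and its top array overlapped the others. Ddx3x ran from 6.43 to 7.23 over all 24 arrays, with group medians of 6.67 to 6.89.

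The test filter, detection on at least 6 of 24 arrays, kept 12 of the 19 probes in the kidney. Under IgG1, 2 of 12 differed by salt, 1 higher and 1 lower, against 14.0% of 11534 probes tested (6.74% higher and 7.30% lower). Whether 2 of 12 differs from that share was not tested. The unnamed probe ILMN_2039025 averaged 6.18 ± 0.14 on high salt and 5.79 ± 0.27 on low salt (SD, n = 6 each), a log2 difference of 0.39 ± 0.12 (SE, limma adjusted p = 0.0316). Its mean deposited signal went the other way, being lower on high salt, while its median was higher there. This probe was near the detection limit, with mean signal over the limit of 1.09 on high salt and 0.961 on low salt. It was called on 6 high-salt and 2 low-salt IgG1 arrays. Ndrg3 averaged 7.33 ± 0.20 on high salt and 7.70 ± 0.24 on low salt (SD, n = 6 each), a difference of -0.38 ± 0.13 (SE, limma adjusted p = 0.0477). For Ndrg3 the mean deposited signal was lower on high salt too. Groups overlapped for both, while 5.05% of all tested probes had groups that did not overlap. The count was 0 without high-salt IgG1 replicate 1, low-salt IgG1 replicate 1 or low-salt IgG1 replicate 2, and 0 with only the 2 groups compared or without background correction. The median difference of the 12 was -0.08, beside -0.02 over all tested.

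With antibody, 0 of 12 differed by salt in the kidney, against 1.84% of all tested, and the smallest adjusted p was 0.372 (limma). The antibody on high salt gave 0 of 12, against 2.72%. Ndrg3 came nearest, at 7.77 ± 0.23 with antibody and 7.33 ± 0.20 with IgG1 (SD, n = 6 each), a difference of 0.44 ± 0.13 (SE, limma adjusted p = 0.0600). Cldn19 followed, at 9.05 ± 0.61 and 8.46 ± 0.38, a difference of 0.58 ± 0.22 (SE, limma adjusted p = 0.169). With array weights 2 of 12 passed, and 1 passed without the 2 kidney arrays that stood apart, replicate 1 of high salt with IgG1 and replicate 2 of low salt with IgG1.

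The antibody on low salt gave 0 of 12 in the kidney, against 0% of all tested, while 1885 of all and 3 of the 12 had an unadjusted p below 0.05 (limma). ILMN_2039025 averaged 6.26 ± 0.23 with antibody and 5.79 ± 0.27 with IgG1 (SD, n = 6 each), a difference of 0.47 (limma adjusted p = 0.0972). Drc7 differed by 0.30 (limma adjusted p = 0.137), and its antibody and IgG1 arrays did not overlap in normalized level, as was so for 1.12% of all tested probes. Drc7 was near the detection limit, called on 3 antibody and 0 IgG1 arrays of these groups. Deposited signal went the other way, at 197.8 with antibody and 232.3 with IgG1 for Drc7, and 209.8 and 238.7 for ILMN_2039025. The difference between the antibody effects on the 2 diets passed for 0 of 12, against 1.11%. It was -0.52 for ILMN_2039025, with a limma adjusted p of 0.0887.

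**Figure D5:**
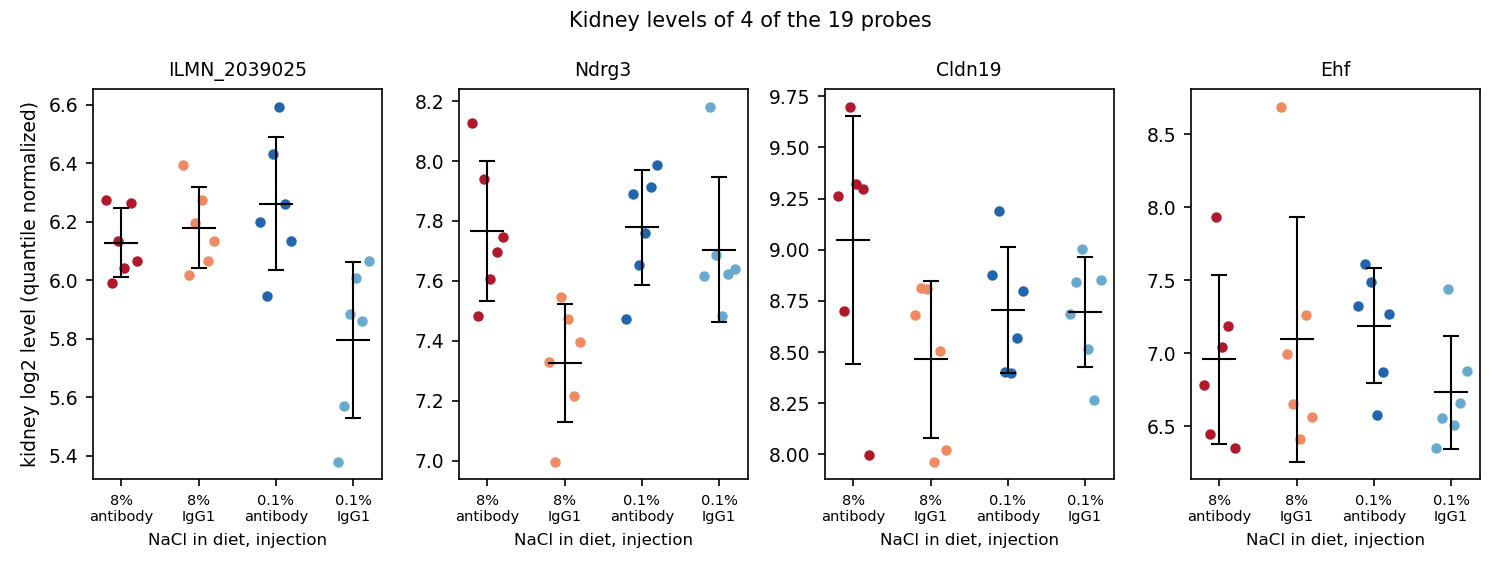
Quantile-normalized log2 level in the kidney (vertical axis) of ILMN_2039025, Ndrg3, Cldn19 and Ehf by diet and injection, 1 point per animal, with the mean and SD of 6 arrays. Ndrg3 averages 7.33 on high salt with IgG1, below the other groups at 7.70 to 7.78, and ILMN_2039025 averages 5.79 on low salt with IgG1, below the other groups at 6.13 to 6.26.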

How the data were processed

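RNA of 24 rats was measured in left ventricle and kidney on 48 single-colour Illumina arrays. The deposited intensity of each probe was on a linear scale with no normalization between arrays, and the authors deposited a detection p-value beside it, a multiple of 0.00121, from GenomeStudio 2011.1 per the submitters' processing notes. The deposited score of the second table equalled log10 intensity standardised within its array, to within 0.00500 in ventricle and 0.00649 in kidney. No chip block was fitted, as chip and scan order were not given in those sources.

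Intensities were corrected and quantile normalized per tissue with neqc (limma 3.58.1, R 4.3.3, offset 16, background from the detection p-values). Probes detected at p below 0.05 on at least 6 of 24 arrays were tested, 8354 in ventricle and 11534 in kidney, with lmFit and eBayes on 4 group means. Benjamini-Hochberg adjustment ran over all tested probes, at a threshold of 0.05. The fit was run on simulated data in which each probe had the same spread in all groups and arrays did not differ in brightness. That run cannot show how unequal spread or brightness affects the calls. The number of arrays limits the precision. The p-values rest on a spread between arrays pooled over the 4 groups of a tissue, which can differ from that of the 2 groups compared. Probes were named from the platform annotation, updated through a rat gene table. Of 22523 probes 13793 had 1 gene name, 8730 none and 0 several. The files name no genome build, so no coordinates are given.

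The members and lists were chosen with earlier results of these data known. Named are the 12 members of highest high-salt signal, the largest called changes in either direction per comparison (or, with under 6 calls, the 2 smallest p-values each way) and the members at each edge of the rule. Of unnamed probes, at most 2 rising and 2 falling are given per comparison. Equal replicate numbers in different groups did not pair samples.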

Additional observations from a re-analysis of the deposited data

Results flagged for a closer look

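In 184 groups of 6 values examined, 25 held an array far from the others, where chance alone would give about 1 in 20. Each ratio here is that array's deposited value over the nearest of the other 5. The kidney array of low salt with IgG1 replicate 1 was high for 10 probes. The ratio was 1.24 for ILMN_1650361, 1.26 for Sipa1l3, 1.32 for Kif5c, 1.32 for Stac3, 1.44 for Hapln4, 1.33 for Eef1a1, 1.36 for Ndrg3, 1.28 for Ino80d, 1.30 for Ddx3x and 1.36 for ILMN_1354705. On the same array the median signal of the 19 probes was 1.24 times and the detection limit 1.29 times that of the next array. The kidney array of high salt with IgG1 replicate 1 was low, with a ratio of 0.760 for ILMN_1650361, 0.775 for Kif5c and 0.819 for the median of the 19 probes.

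On kidney arrays of high salt with antibody, ILMN_1354705 was high on replicate 5, with a ratio of 1.18. Replicate 6 detected 8 of the 19 probes, a ratio of 0.8. In the ventricle on high salt, ILMN_2039025 was high on antibody replicate 4 (1.10), and Myo10 on antibody replicate 5 (1.08) and on IgG1 replicate 1 (1.20). On low salt ILMN_2039025 was low on antibody replicate 6 (0.826). In the ventricle on low salt with IgG1, ILMN_1650361 was high on replicate 5 (1.08), Sipa1l3 on replicate 2 (1.15), Hapln4 on replicate 3 (1.20) and ILMN_1366534 on replicate 1 (1.15).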

How the results depend on the processing

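The number of called probes depended on the processing in most comparisons, and the cause was not tested. Counts under other settings stand without the share of all probes called there. For the antibody on high salt in the ventricle, the count of 10 was 0 under median scaling, 0 with the brightness covariate, 0 with only the groups compared, 0 where detection on all 24 arrays was required (which leaves no member to test), 6 with no filter, 5 with array weights, 3 without the 2 arrays that stood apart, and 3 in the set of 5 probes with at most 1 low-salt and at least 11 high-salt calls. Leaving out 1 array gave 6 to 14. Under median scaling 12 of 19 probes lay below 0, among them 3 of the 10 called, Stac3 (-0.10), Myo10 (-0.040) and the unnamed ILMN_1354727 (-0.0024). The ventricular interaction (0) became 5 with array weights and 0 to 5 leaving out 1 array. The median salt difference under IgG1 (1.28) was 0.40 under median scaling, 0.44 without background correction, 0.40 on the authors' scores (in SD units), 1.83 for the set at detection p below 0.01, and turned to -0.27 with the brightness covariate and -0.33 on deposited signal, an alternative chosen after seeing the data. Under antibody (1.99) these were 0.42, 0.73, 0.60, 2.61, -0.15 and -0.43. The diets did not overlap in brightness, so the salt values with that covariate are extrapolations.

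For kidney salt under IgG1 the count of 2 was 1 under median scaling, on the authors' scores, with no filter, with detection on all 24 arrays, with array weights, with a variance trend and with the replicate block, and 0 without background correction, with only the groups compared, without the 2 arrays that stood apart and in the set of 5 probes. Leaving out 1 array gave 0 to 2. The kidney antibody effect on high salt (0) became 1 with detection on all 24 arrays, with the brightness covariate and without the 2 arrays that stood apart, 2 with array weights, 2 in the set at detection p below 0.01, and 0 to 1 leaving out 1 array. On low salt (0) it became 1 under median scaling, 1 with array weights and 0 to 1 leaving out 1 array. The kidney interaction (0) became 1 with array weights. The count for kidney salt under antibody was 0 and that for the ventricular antibody effect on low salt was 0 in each alternative run.

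Replicate numbers recur in all groups. Mean correlations of deviations between arrays of the same number ran from -0.11 to 0.04, and 2 ventricular and 6 kidney arrays correlated best with their own number, so the numbers were not taken to pair the animals. With the replicate block the ventricular antibody count on high salt was 9 and the kidney salt count under IgG1 was 1.

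None of the 19 probes exceeded 1.26 times the detection limit on any ventricular array, which limits what their levels can show.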
